A study of Homo sapiens with 2 samples.

Results

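The BCL2 family genes described here encode proteins that keep cells alive or that promote their death at the mitochondrion. They were chosen by symbol: BCL2, BCL2L1, BCL2L2, MCL1, BAK1, BAD, BID, BIK, BCL2L11 and PMAIP1, 10 of 16424 genes with a value. Transcript starts were measured by cap analysis of gene expression (CAGE), which reads the capped 5′ ends of transcripts as short tags. The cells were PLC/PRF/5, an established human hepatocellular carcinoma line, grown in culture dishes. M2BPGi is a glycosylation isomer of Mac-2-binding protein, and the comparison asks which transcripts differ after its addition. The non-treated group (0 µg/ml) and the M2BPGi-treated group (3 µg/ml, 6 h) had 1 library each, so no difference has a replicate check.

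Proteins of the BCL2 family decide whether the outer mitochondrial membrane is opened, a step that releases cytochrome c and starts the caspase cascade. Survival proteins such as BCL2, BCL-XL and MCL1 hold the pore-forming effectors BAX and BAK in check. BH3-only proteins sense stress and either neutralise the survival proteins or activate the effectors. In the liver, BCL-XL and MCL1 are known to protect hepatocytes, and BID links death receptors to the mitochondrion.

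Values are CPM, the tags of a gene scaled to a common library size. The tag numbers behind them were read back from the steps of the values, with totals of 24040209 tags in non-treated and 24862941 tags in M2BPGi-treated cells. The listed genes held 22630317 and 23471991 of them. A count of 0 tags was taken to allow up to 3 tags, or 0.125 CPM and 0.121 CPM. CAGE gives 1 tag per sequenced 5′ end whatever the length of the transcript, so CPM values were compared between genes without length scaling. Intervals are exact 95% intervals and cover counting error only, not the variation between cultures.

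Of the members, 9 of 10 reached a mean of 1 CPM, and BIK was the one below it. No member differed by 1.5-fold in either direction, where 1.6% of the 13724 genes tested were that much higher and 4.04% that much lower in M2BPGi-treated cells. For this threshold and for the log2 ratios of genes and lists, 1 CPM was added to each value, which understates the change of low genes. Tag ratios, their intervals and the ratios of sums are on the log2 scale too, with nothing added. A binomial test of the tags, which compares the libraries and not the conditions, called 4 of the 9 members higher and 0 lower. The same test called 20.9% of all tested genes higher and 28.7% lower, or 2869 and 3942 genes. After rescaling of the libraries to a median of 0 this order turned, with 3531 genes higher and 3248 lower. The members called were BCL2L1, BAK1, BAD and BID. Among the members tested, 7 had a log2 ratio above 0 and 2 below it, with a median of 0.12. Over all genes tested the median was −0.05, with 5881 genes above 0 and 7826 below. Under the same rescaling BCL2L11 changed sign and was at 0.00.

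**Figure D1:**
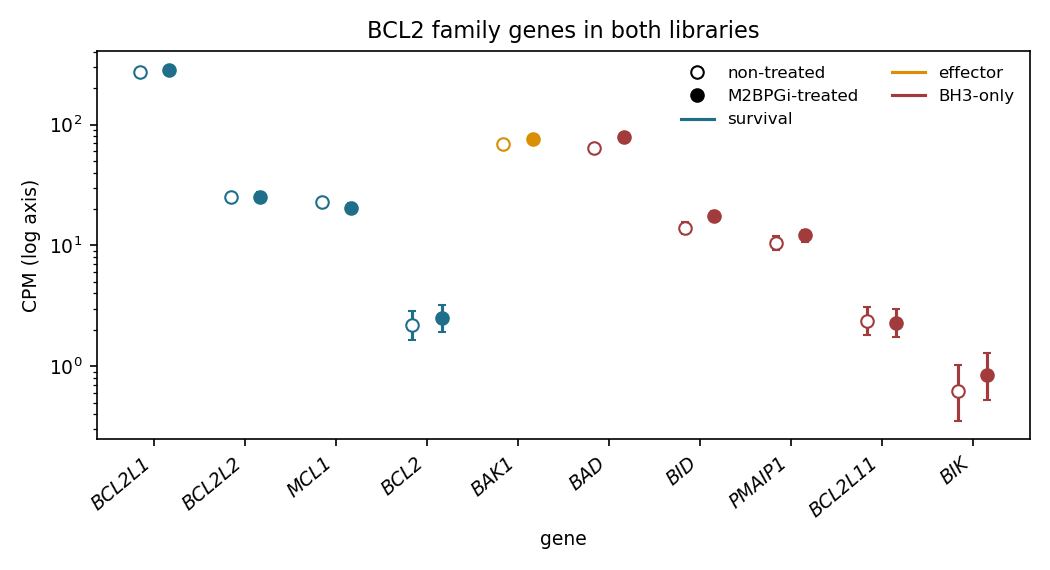
CPM of the 10 members (log axis) in the non-treated (open circles) and M2BPGi-treated library (filled circles), coloured by role. Bars are exact 95% Poisson intervals, shorter than the circle where not visible. BCL2L1 lay above all other members in both libraries, and BIK was lowest.

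The promoters of BCL2L1, BAK1 and BAD are shown because their windows overlap the annotated gene least. These genes also gave the most tags of the survival, effector and BH3-only groups. Each run holds the 250 bases before the most upstream RefSeq start in GRCh38.p14, 5′ to 3′ in the direction of the gene, and all 3 genes lie on the minus strand. They lie at chr20:31723964-31724213 for BCL2L1, chr6:33580277-33580526 for BAK1 and chr11:64284705-64284954 for BAD. Capitals mark motif matches on either strand, and matches could overlap. The letters of the TATA box were TATAAA. For the GC box they were GGGCGG. The CCAAT box is spelled by its name. The E-box was searched as CACGTG.
BCL2L1: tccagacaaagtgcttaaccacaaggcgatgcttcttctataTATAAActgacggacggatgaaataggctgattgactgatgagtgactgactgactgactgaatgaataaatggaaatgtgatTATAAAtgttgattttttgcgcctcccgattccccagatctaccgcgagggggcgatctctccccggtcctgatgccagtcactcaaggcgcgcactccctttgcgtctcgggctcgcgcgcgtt
BAK1: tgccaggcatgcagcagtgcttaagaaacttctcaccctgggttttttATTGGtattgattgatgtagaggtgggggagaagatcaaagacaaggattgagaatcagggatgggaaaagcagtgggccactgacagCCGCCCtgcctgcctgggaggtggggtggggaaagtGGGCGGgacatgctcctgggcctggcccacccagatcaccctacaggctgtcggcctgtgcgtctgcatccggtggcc
BAD: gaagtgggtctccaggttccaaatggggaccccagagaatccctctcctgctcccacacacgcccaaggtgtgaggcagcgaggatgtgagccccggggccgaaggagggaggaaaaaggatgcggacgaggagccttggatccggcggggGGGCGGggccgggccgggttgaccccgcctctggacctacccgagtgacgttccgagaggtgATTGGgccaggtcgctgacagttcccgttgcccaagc
The BCL2L1 window held 2 TATA box matches and none of the other motifs. The BAK1 window held 1 CCAAT box and 2 GC box matches, and the BAD window 1 of each. In GENCODE v29, the annotated gene reaches over the last 26 bases of the BCL2L1 window and 17 bases of the BAK1 window, and over 0 bases of the BAD window.

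Of 27305 promoters of this length, 1 per gene, 11.2% held a TATA box match, 33.0% a CCAAT box, 42.2% a GC box and 6.46% an E-box match. RefSeq promoters were matched for 7 of 10 members, and BCL2L2, MCL1 and BIK are named only. PMAIP1 had 4 GC box matches. BCL2L11 had 3, with 1 CCAAT box match. BCL2 and BID had no match to any motif searched, and no member window held an E-box match. The GC share ranged from 47.6% in BID to 76.8% in BCL2L11, against a median of 57.6% over all promoters. PMAIP1 had 36 CpG sites and BID had 4, against a median of 10. In GENCODE v29, the windows of BCL2 and BCL2L11 lie wholly inside the annotated gene, and those of BID and PMAIP1 overlap it by 105 and 48 bases, so they may not be the promoters in use in these cells. These matches describe the letters of the windows and do not show that a factor binds there.

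Among the survival genes, BCL2L1 was by far the most abundant. BCL2L1 (ENSG00000171552), which encodes BCL-XL, had 271 CPM in non-treated cells (264 to 277) and 285 CPM in M2BPGi-treated cells (278 to 291). The intervals of the 2 libraries did not overlap, but the difference was small, with a log2 ratio of 0.07 and an interval of the tag ratio of 0.02 to 0.12. After rescaling of the libraries to a median of 0, its log2 ratio was 0.12. Its level was at percentile 95.7 of all genes tested, while its ratio was at percentile 66.4. BCL2L1 stood 3.89-fold above the next member in non-treated cells and 3.58-fold above it in M2BPGi-treated cells.

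BCL2L2 (ENSG00000129473), which encodes the survival protein BCL-w, had 24.96 CPM without and 25.3 CPM with M2BPGi. The tag ratio had an interval of −0.14 to 0.19 on the log2 scale, so no difference was detectable at this depth. BCL2L2-PABPN1, a readthrough gene on the same strand, starts 9 nt from BCL2L2 and shares 491 nt with 100% identity. It had 20.4 and 20.8 CPM, and the assignment of tags between these genes is uncertain. PPP1R3E and HOMEZ overlap BCL2L2 on the opposite strand, with 14.2 and 7.68 CPM for PPP1R3E and 6.36 and 6.23 CPM for HOMEZ.

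MCL1 (ENSG00000143384) encodes a short-lived survival protein that depends on steady synthesis. It had 22.6 CPM without and 20.4 CPM with M2BPGi, the lowest log2 ratio of the members tested, −0.14. The interval of its tag ratio, −0.32 to 0.03, included 0, and the test did not call it. BCL2 (ENSG00000171791), the gene that gave the family its name, had only 2.20 and 2.49 CPM, from 53 and 62 tags. Its interval of −0.37 to 0.73 was too wide to show a difference of the size seen in the other members.

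BAK1 (ENSG00000030110) was the effector among the members and encodes BAK, which forms pores in the outer mitochondrial membrane. It had 69.6 CPM in non-treated cells (66.3 to 73.0) and 75.6 CPM in M2BPGi-treated cells (72.2 to 79.1). These intervals overlapped. The log2 ratio was 0.12, and the interval of the tag ratio, 0.02 to 0.22, lay just above 0. BAK1 has a near-identical copy, BAK1P1, with 98.4% identity over 251 nt. BAK1P1 was listed at 0 in both libraries.

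Among the members tested, the highest ratios were those of the BH3-only genes BAD and BID. BAD (ENSG00000002330) encodes a protein that binds BCL-XL and BCL2 and is held inactive by phosphorylation. It had 63.6 CPM in non-treated cells (60.4 to 66.8) and 79.5 CPM in M2BPGi-treated cells (76.0 to 83.1), and the intervals were apart. The log2 ratio was 0.32, with an interval of the tag ratio of 0.23 to 0.42, a 1.25-fold ratio of the tags. This ratio was at percentile 90.8 of all genes tested. GPR137 lies on the opposite strand and its nearest start is 30 nt from that of BAD. Its values went the other way, with 46.6 CPM without and 38.8 CPM with M2BPGi. The deposited gene names carry a strand label, but whether the counting used the strand is not given in the sources used here. The assignment of tags within this pair is therefore uncertain.

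BID (ENSG00000015475), which caspase-8 cleaves to carry a death receptor signal to the mitochondrion, had 13.9 CPM in non-treated cells (12.5 to 15.5) and 17.5 CPM in M2BPGi-treated cells (15.9 to 19.2). The intervals did not overlap. Its log2 ratio was 0.31, at percentile 89.8, and the interval of the tag ratio was 0.12 to 0.53. BAD and BID thus had nearly the same ratio, from 1528 and 1977 tags for BAD and from 335 and 434 tags for BID.

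PMAIP1 (ENSG00000141682) encodes NOXA, which binds MCL1. It had 10.5 CPM without and 12.1 CPM with M2BPGi, with a log2 ratio of 0.19 and an interval of the tag ratio of −0.04 to 0.45. BCL2L11 (ENSG00000153094) encodes BIM, which can bind every main survival protein and activate the effectors. It had 57 tags in each library, or 2.37 and 2.29 CPM, with an interval of −0.60 to 0.51. MIR4435-2HG, a long non-coding RNA gene that overlaps BCL2L11 on the opposite strand, had 65.5 CPM without and 30.3 CPM with M2BPGi. The nearest starts of MIR4435-2HG and BCL2L11 are 85365 nt apart. BIK (ENSG00000100290), whose protein acts at the endoplasmic reticulum, had 15 and 21 tags, or 0.62 and 0.84 CPM. It was not tested, and its interval of −0.59 to 1.497 covered both directions.

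**Figure D2:**
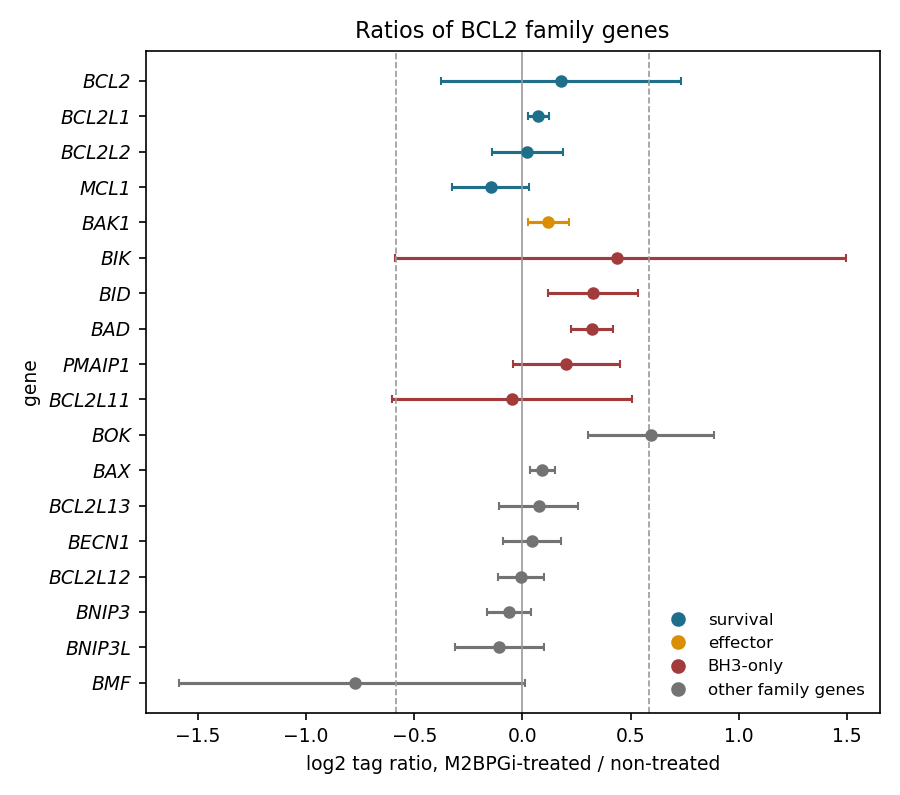
Log2 ratio of the tags (M2BPGi-treated to non-treated, no pseudocount) with exact 95% intervals for the 10 members by role and for other BCL2 family genes with a mean of at least 1 CPM. Dashed lines mark 1.5-fold. The intervals of BCL2L1, BAK1, BAD, BID, BAX and BOK lay above 0.

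In the order of levels, BCL2L1 came first in both libraries and BIK last. In non-treated cells BAK1 and BAD followed, then BCL2L2, MCL1, BID, PMAIP1, BCL2L11 and BCL2. The intervals overlapped between BAK1 and BAD, between BCL2L2 and MCL1 and between BCL2L11 and BCL2, and all other neighbours were apart. In M2BPGi-treated cells BAD stood above BAK1 and BCL2 above BCL2L11, but these pairs overlapped there as well. MCL1 and BID, which were apart in non-treated cells with 22.6 and 13.9 CPM, overlapped in M2BPGi-treated cells with 20.4 and 17.5 CPM. BCL2L2 and MCL1, which overlapped in non-treated cells, were apart in M2BPGi-treated cells with 25.3 and 20.4 CPM.

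**Figure D3:**
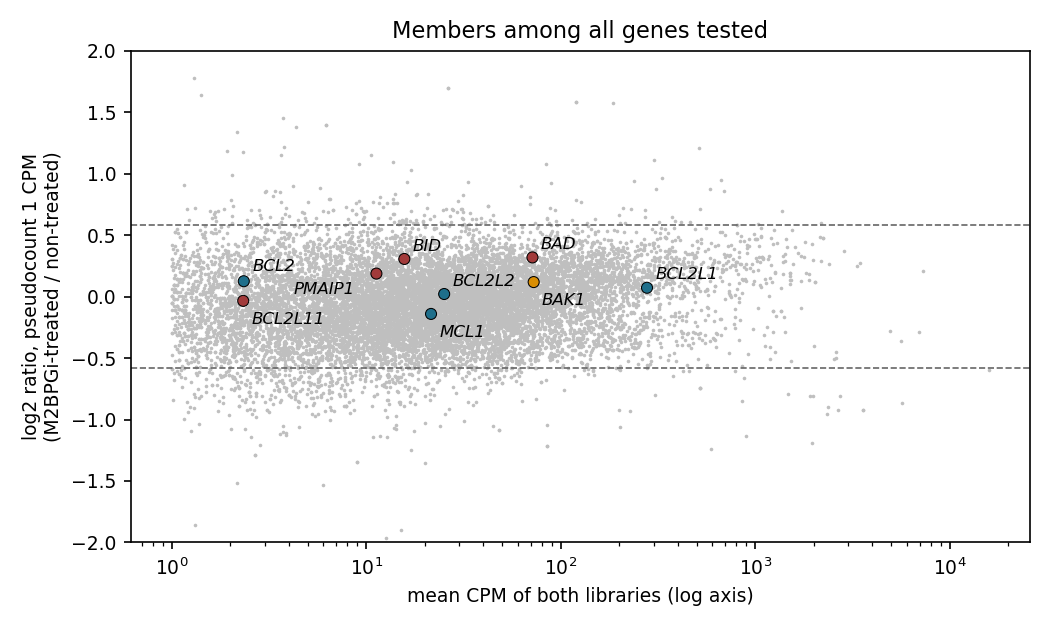
Log2 ratio (pseudocount 1 CPM) against the mean CPM of both libraries (log axis) for the genes tested, grey, with the 9 members tested coloured by role as in the plot of levels. Dashed lines mark 1.5-fold, and 25 genes lie beyond the axis limits of −2 and 2. All members tested lay between the dashed lines.

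The members were also summed by role. The survival genes gave 321 CPM without and 333 CPM with M2BPGi, a log2 tag ratio of 0.05 (0.01 to 0.10) that was 0.11 after rescaling of the libraries. The BH3-only genes gave 91.0 and 112 CPM, a log2 tag ratio of 0.30 (0.22 to 0.38). The intervals of these ratios did not overlap, so within these libraries the BH3-only sum was higher by more than the survival sum. Of all tags on the members, the survival genes held 66.6% in non-treated cells (65.8 to 67.5) and 63.9% in M2BPGi-treated cells (63.1 to 64.8). The share of the BH3-only genes was 18.9% (18.2 to 19.6) and 21.5% (20.8 to 22.3), and that of BAK1 was 14.5% in both. Survival tags thus outnumbered BH3-only tags 3.52-fold in non-treated and 2.97-fold in M2BPGi-treated cells.

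These sums rested largely on a single gene each. BCL2L1 held 56.3% and 54.7% of the tags on the members, and BAD 13.2% and 15.3%. In sums chosen after the values were seen, the survival genes outnumbered the BH3-only genes 11.7-fold and 10.2-fold without BAD. Without BCL2L1 the ratio was 0.547 and 0.430, and the log2 tag ratio of the survival sum changed sign to −0.04, with an interval of −0.16 to 0.07. Without BAD the BH3-only sum had a log2 tag ratio of 0.25 (0.10 to 0.40). With BAX and BOK counted as effectors and BBC3 and BMF as BH3-only genes, the survival genes outnumbered the BH3-only genes 3.43-fold and 2.93-fold. BAX and BOK do not enter this ratio, but they change the shares. The survival genes then held 46.7% and 44.9% of the tags, the effectors 39.7% and 39.8% and the BH3-only genes 13.6% and 15.3%.

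Transcript length was set beside the ratios with earlier results of these data known. The measure was chosen after the values were seen, and both measures tried are given. By the longest annotated transcript, the median log2 ratio of 13271 genes in 5 length classes was 0.04 in the shortest class and −0.12 in the longest. BAD was in the shortest class, BCL2L1, BAK1, BID and PMAIP1 were in the next, MCL1 and BCL2L11 were in the second longest and BCL2 was in the longest. By the median annotated transcript, the measure tried before it, the medians were −0.04 in the shortest and −0.11 in the longest class and −0.02 in the next to shortest, so there was no steady fall. By that measure BAD was again in the shortest class, with BCL2L2, while BAK1, MCL1 and BCL2 were in the longest. BID and PMAIP1, with log2 ratios of 0.31 and 0.19, were then in the second longest class. The part of length in the members' ratios was not tested.

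The rest of the family was described from a list of 14 genes, of which 10 were listed and 8 reached a mean of 1 CPM. With 1 CPM added, 0 of these differed by 1.5-fold, and the binomial test called 2 higher and 0 lower, against 20.9% and 28.7% of all genes tested. Their median log2 ratio was 0.02, with 4 above and 4 below 0, and it changed sign without the filter on low values. BAX, the effector partner of BAK, had 197 CPM without and 209 CPM with M2BPGi, with an interval of the log2 tag ratio of 0.03 to 0.15. BAX thus had more tags than BAK1 and fewer than BCL2L1. BOK, a further effector-like gene, had 6.70 and 10.1 CPM, the highest log2 ratio of the list at 0.53, with an interval of the log2 tag ratio of 0.30 to 0.89. Without the added CPM, BOK was 1.51-fold higher by its tags. BMF, a BH3-only gene, had 1.58 and 0.93 CPM, the lowest at −0.42. Its log2 tag ratio of −0.77 was also past 1.5-fold, but with an interval of −1.59 to 0.01.

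The other family genes that were tested lay close to 0 by ratio. BNIP3, a mitophagy receptor, had 67.0 and 64.2 CPM, and its relative BNIP3L had 16.7 and 15.5 CPM. BCL2L12 had 59.2 and 59.0 CPM and BCL2L13 had 20.0 and 21.0 CPM. BECN1, an autophagy gene whose protein carries a BH3 motif, had 35.9 and 37.0 CPM. BCL2L12 and BNIP3 have a near-identical copy each. BBC3 and BCL2A1 were below the filter, and BCL2L10, BCL2L14, BCL2L15 and HRK are named only.

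**Figure D4:**
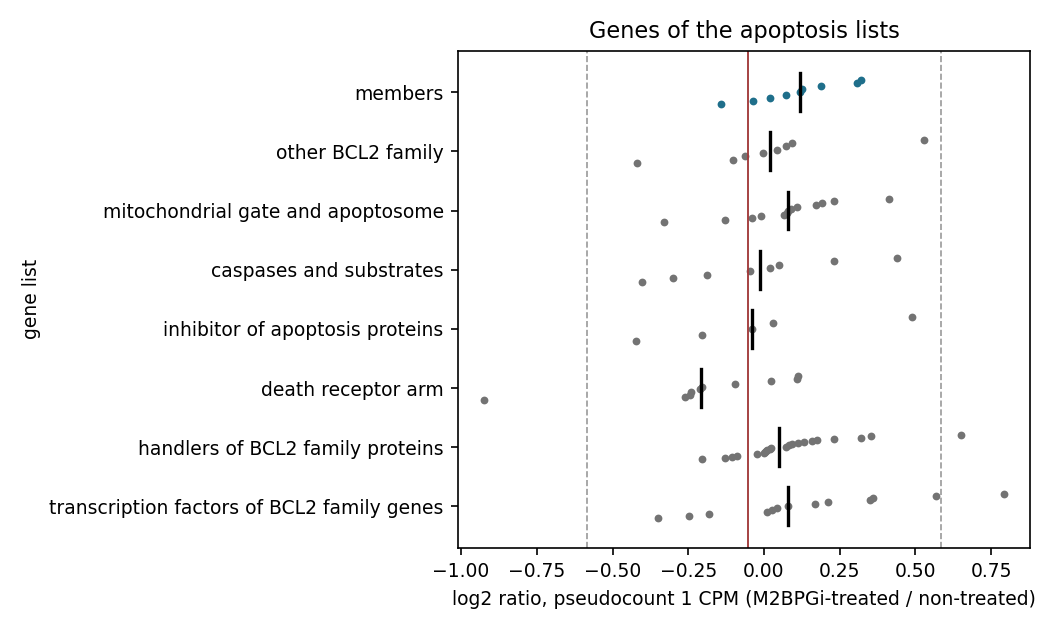
Log2 ratio (pseudocount 1 CPM) of each tested gene of the members and of 7 other apoptosis lists. Each point is a gene, black bars are list medians, the red line is the median of all genes tested (−0.05) and dashed lines mark 1.5-fold. The members' median was 0.12, and that of the death receptor list was −0.21.

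The steps around the BCL2 family were compared with the members through lists of known genes. The counts called in each list stand against 20.9% higher and 28.7% lower over all genes tested. Levels were not matched between the lists and all genes, and the test calls smaller ratios where tags are many. BCL2L1 was called at a log2 ratio of 0.07 from 6508 and 7076 tags. PMAIP1 was not called at 0.19 from 252 and 300 tags. Downstream, at the mitochondrial gate and apoptosome, 7 of 13 genes were called higher and 1 lower, with a median log2 ratio of 0.08. CYCS, cytochrome c, had 618 CPM without and 823 CPM with M2BPGi, and VDAC2, an outer membrane channel that binds BAK, had 57.7 and 68.0 CPM. APAF1, the scaffold of the apoptosome, had 19.8 and 15.5 CPM, and CASP9, the caspase it activates, had 28.5 and 25.9 CPM. CYCS and VDAC2 have near-identical copies, so their tags are uncertain.

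Of 8 caspases and their substrates, 2 were called higher and 2 lower, close to the shares of all genes, with a median of −0.01 that changed sign under rescaling. DFFA, the inhibitor of the apoptotic nuclease, had 36.6 and 49.99 CPM, and PARP1, a caspase substrate with a near-identical copy, had 68.6 and 80.7 CPM. CASP2, an initiator caspase, had 18.7 and 13.9 CPM. Of 5 inhibitor of apoptosis genes, 1 was called higher and 2 lower, too few genes to set apart from the shares of all genes, with a median of −0.04 that changed sign as well. BIRC5, survivin, had 86.8 and 122 CPM and BIRC6 had 39.6 and 29.3 CPM. XIAP had 21.6 and 22.0 CPM and BIRC2 had 74.1 and 64.2 CPM. XIAP has near-identical copies, and BIRC5 shares near-identical stretches with other genes.

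Upstream of BID, the death receptor arm had 0 genes called higher and 5 of 10 called lower, against 20.9% and 28.7% of all genes tested, with a median of −0.21. FAS and FASLG were on this list as well but had no value, so these counts do not cover them. TNFRSF10D, a decoy receptor of TRAIL, was the only gene of this list past 1.5-fold, with 11.7 CPM without and 5.67 CPM with M2BPGi. The TRAIL receptors TNFRSF10A and TNFRSF10B had 31.6 and 26.5 CPM and 50.3 and 41.9 CPM. The adaptor FADD had 40.2 and 43.5 CPM and CFLAR, which blocks caspase-8, had 62.9 and 67.8 CPM.

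Among 22 genes of proteins that bind, modify or degrade BCL2 family proteins, 8 were called higher and 1 lower, against 20.9% and 28.7% of all genes, with a median of 0.05. DYNLL1, a dynein light chain that binds BIM, was past 1.5-fold, with 210.4 and 331 CPM. It has near-identical copies, DYNLL1P1 among them, and shares short stretches with many other genes, so its assignment is uncertain. DYNLL2, which binds BMF, had 47.3 and 60.6 CPM. HUWE1, a ubiquitin ligase of MCL1, had 138 and 126 CPM, and USP9X, which removes ubiquitin from MCL1, had 26.9 and 24.9 CPM.

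Of 13 genes of transcription factors known to act on BCL2 family genes, 5 were called higher and 3 lower, against the same shares of all genes, with a median of 0.08. DDIT3, a stress factor known to induce BCL2L11, had 90.4 and 116 CPM and shares 105 nt with an overlapping gene. E2F1 had 51.0 and 42.8 CPM and CREB1 had 31.6 and 27.8 CPM.

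The label of the cells was set against marker genes. Of 14 hepatocyte and hepatoma markers all were listed, with a sum of 3854 CPM without and 3838 CPM with M2BPGi. These sums hid opposite differences, since 4 markers were called higher and 6 lower, with a median log2 ratio of −0.15, where 20.9% and 28.7% of all genes were called. KRT18, which has near-identical copies, was the most abundant and was called higher, with 1249.8 and 1592 CPM. Also called higher were APOA2 with 241 and 261 CPM, HNF4A with 39.1 and 43.8 CPM and FOXA2 with 12.8 and 18.4 CPM. The markers called lower were AFP, SERPINA1, TF, APOB, KRT8 and GPC3. AFP had 695 and 566 CPM. SERPINA1 had 671 and 455 CPM, and TF was past 1.5-fold lower with 6.61 and 4.02 CPM. TF shares 192 nt at 100% identity with TFP1, an overlapping gene on the same strand. TFP1 had 3.91 and 2.25 CPM, so the assignment of tags to TF is uncertain. The part of the marker differences in the members' ratios was not tested. ALB was low for a hepatocyte marker, with 8.82 and 7.04 CPM. Of 7 stellate and fibroblast markers 2 were listed, summing to 5.20 and 4.18 CPM, with COL3A1 the higher. Of 8 leukocyte and Kupffer cell markers only PTPRC was listed, at 0 in both libraries, and of 4 endothelial markers 0 were listed. Fewer cells of a kind and less RNA per cell cannot be told apart in bulk libraries.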

How the data were processed

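CAGE libraries of PLC/PRF/5 cells, 1 non-treated and 1 M2BPGi-treated, were compared. Per the methods, ribosomal tags and those with unread bases were removed, mapping was by BWA and 5′ ends were clustered with CAGEr. The authors deposited CPM per gene, with 2 decimals. A mouse genome is named in the methods, whereas the submitters' processing notes list hg19, BWA and HISAT2, and the gene identifiers are those of human genes. The assignment of tags to genes is not given in the sources used here.

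Tags were recovered from the steps of the CPM: 100% of values above 0 were whole multiples of 1 tag within 0.005 CPM, the rounding of the table. A tolerance tighter than this rounding was not met by every value. Log2 ratios used a pseudocount of 1 CPM over 13724 genes with a mean of at least 1 CPM. An exact binomial test of the tags, given both totals and adjusted over these genes by Benjamini-Hochberg, was called at 0.05. It sets 1 library against the other, not the conditions. No p-value is given, because each condition had 1 library. Tag ratios and shares have Clopper-Pearson intervals and levels have Poisson intervals. The procedure was tested on simulated data.

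The members and lists were chosen with earlier results of these data known. Named are all members, other family genes above the filter and, of each other apoptosis list, every gene past 1.5-fold and the 2 highest and 2 lowest ratios with a mean of at least 10 CPM. Some of the genes selected in this way are not reported here. The genes named as neighbours or copies of members were chosen by position and sequence. A near-identical copy is another gene of GENCODE v29 with 95% identity or more across 100 nt or more of the starting 500 nt of any transcript, so it may be a shared stretch rather than a paralogue. Alternatives were other pseudocounts, filters, fold thresholds, a rescaling and 1 entry per symbol. Python 3.11.15, scipy 1.17.1, numpy 2.4.6, pandas 2.3.3, matplotlib 3.10.9 and BLAST+ 2.17.0 were used. Promoters came from RefSeq (GRCh38.p14).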

Additional observations from a re-analysis of the deposited data

How the results depend on the processing

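The binomial test called 4 members higher and 0 lower without a filter, with a mean of at least 10 CPM, after rescaling and with 1 entry per symbol. Leaving out BAK1 and BCL2L2, chosen after seeing the data, left 3. That count was certain, because BAK1 was among the 4 called, BCL2L2 was not and the test itself was unchanged. The count of members past 1.5-fold was 0 under the alternatives that could raise it, a pseudocount of 0.1 CPM, no filter and rescaling. Of 30 log2 ratios of members, 29 moved by less than the margin of counting error. The exception was BCL2L1, at 0.12 with rescaling to a median log2 ratio of 0. Under the same rescaling the survival sum was 0.11, and BCL2L11 changed sign within its margin. Without BCL2L1, an alternative chosen after seeing the data, the survival sum reversed to −0.045. All 41 list medians moved by less than the median such margin of their genes, and 3 near 0 changed sign, those of the caspases and the inhibitors of apoptosis with rescaling and that of the other family genes without a filter. Over all genes, 219 were past 1.5-fold higher and 555 lower. They were 336 and 856 with a pseudocount of 0.1 CPM, 91 and 164 with 5 CPM, 33 and 59 past 2-fold, and 135 and 223 with a mean of at least 10 CPM, where fewer genes were tested. Rescaling gave 292 higher and 441 lower, which moved the share of higher genes from 28.3% to 39.8%. For the binomial test that share moved from 42.1% to 52.1%. The cause of the other changes was not tested. TMM factors and a test with an assumed variation between cultures were not run. No paired analysis was possible because each group had 1 library, and for the same reason no library could be left out. Depth limits BCL2, BCL2L11 and BIK most.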
